A study of Homo sapiens with 24 samples.

Results

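CXCL12, CXCR4 and ACKR3 are the chemokine CXCL12 and its 2 receptors, and their transcripts were followed across 24 RNA-seq libraries of LNCaP cells. The genes were chosen by symbol. All 3 were found, each on 1 row of the 60649 features in the count table, and no other row carries these symbols. LNCaP is an established human line of androgen-responsive prostate adenocarcinoma. The study concerned WDR77, the partner of the arginine methyltransferase PRMT5 and a coregulator of hormone-driven transcription.

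Each of the 8 groups held 3 libraries, described as biological triplicates. In study 1 the cells were transfected with a construct for WDR77-peptide 3 (P3) or with an empty vector (EV), and in study 2 with siRNAs against WDR77 (siWDR77) or a non-targeting control siRNA (siCtrl). All cells were moved to androgen-deprived medium the day after transfection. A day later the synthetic androgen R1881 (5 nM) or ethanol as vehicle was added for 48 h. The groups are therefore P3_R1881, P3_vehicle, EV_R1881 and EV_vehicle in study 1, and siWDR77_R1881, siWDR77_vehicle, siCtrl_R1881 and siCtrl_vehicle in study 2. Single libraries are named by the sample number in their title, such as EV_vehicle S29. EV and siCtrl differ in what was transfected and in the study, which cannot be told apart, so their values stand side by side with no test. All groups are transient transfections of 1 cell line, and the share of cells that took up the construct or siRNA was not analysed here.

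CXCL12, also called SDF-1, is a secreted chemokine made mainly by stromal cells, for instance in bone marrow. It binds CXCR4, a receptor that signals through inhibitory G proteins to PI3K, AKT, RAC and MAP kinases and steers cell migration. ACKR3, formerly CXCR7, binds CXCL12 without classical G protein signalling, recruits arrestins and scavenges the chemokine from the surroundings. In prostate cancer the axis is known for its part in homing to bone.

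The 3 genes differ in where they lie and in length (GRCh38, GENCODE 29). CXCL12 spans bases 44370165 to 44386493 of chromosome 10, minus strand, with 6077 bases of exon over its 8 annotated transcripts. CXCR4 spans 136114349 to 136118165 of chromosome 2, minus strand, with 2224 bases of exon. ACKR3 spans 236567787 to 236582358 of the same chromosome, plus strand, with 2258 bases of exon. All are annotated as protein-coding and none overlaps another annotated gene.

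Because R1881 acts on transcription, the sequences before the starts of CXCL12 and CXCR4 were searched for the androgen response motif. RefSeq promoter windows (GRCh38.p14, 250 bases before to 50 after a start) matched 2 of the 3 members, with 1 window for CXCL12 and several for CXCR4. The 250 bases before the start are shown for CXCL12 at chr10:44385098-44385347 and for the upstream-most CXCR4 start at chr2:136118150-136118399. Both are on the minus strand and read 5′ to 3′.
CXCL12: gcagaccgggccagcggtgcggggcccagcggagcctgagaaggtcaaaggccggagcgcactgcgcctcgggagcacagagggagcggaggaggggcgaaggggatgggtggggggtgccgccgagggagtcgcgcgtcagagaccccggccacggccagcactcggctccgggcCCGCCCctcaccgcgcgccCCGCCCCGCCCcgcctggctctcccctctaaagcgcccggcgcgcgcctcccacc
CXCR4: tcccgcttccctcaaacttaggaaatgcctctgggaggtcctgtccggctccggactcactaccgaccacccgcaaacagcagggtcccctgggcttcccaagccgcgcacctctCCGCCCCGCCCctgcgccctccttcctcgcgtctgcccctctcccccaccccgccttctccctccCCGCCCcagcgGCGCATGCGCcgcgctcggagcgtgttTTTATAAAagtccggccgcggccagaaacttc

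Capitals mark matches on either strand to the GC box GGGCGG, the NRF1 core (the palindrome in capitals around AT in the CXCR4 window) or the TATA box TATAAA. The CXCR4 window held 1 NRF1 core, 59 to 50 bases before the start. NRF1 is known to bind this promoter, and its core occurs in 1.24% of the 35116 RefSeq promoter windows searched. TATAAA matched on both strands between 32 and 25 bases before that start, with the matches overlapping, and occurs in 11.5% of windows. GC boxes were found at 3 places in each of these windows, some overlapping, and occur in 45.0% of all windows. The androgen response hexamer AGAACA was in no member window, on either strand, and is in 14.8% of all windows. The full androgen response element, which holds it with its inverted copy after 3 free bases, was in 1 of the 35116. These are matches of letters in short windows and show nothing about binding elsewhere.

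Library depth was 16665915 to 24260446 counts, so a count of 0 allows up to 3 counts, or 0.124 to 0.18 CPM (read counts relative to library size), for counting error only. Levels below are in CPM, with libraries scaled by TMM (trimmed mean of M values) within each study. WDR77 averaged 13.2 ± 1.78 CPM in siWDR77_vehicle and 45.0 ± 2.85 CPM in siCtrl_vehicle (SD, n = 3 each), the direction its siRNA label names. KLK3, which encodes the androgen-driven prostate-specific antigen, averaged 4333 to 8196 CPM in the R1881 groups and 153 to 1924 CPM in the vehicle groups. Its vehicle level was 1326 CPM in EV and 153 CPM in siCtrl cells. All 12 luminal prostate and LNCaP markers averaged at least 1 CPM in each group. Of 10 fibroblast and 8 endothelial markers at most 2 of each reached 1 CPM in a group, and of 9 leukocyte and 5 basal prostate markers at most 1 of each, and COL1A2, POSTN, CDH5 and CD3E had no count in any library.

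The ligand was near the limit of detection in most groups. CXCL12 had 197 counts over all 24 libraries together, with 39 in the highest library and none in 2 libraries. It averaged 1.26 ± 0.403 CPM in P3_vehicle and 0.882 ± 0.303 CPM in P3_R1881, and 0.304 CPM or less in each of the other 6 groups (SD, n = 3). In bulk RNA, fewer cells expressing a gene and less RNA per cell cannot be told apart.

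In P3_vehicle the single libraries had 18, 39 and 28 CXCL12 counts (0.914, 1.70 and 1.17 CPM), against 5, 6 and 0 counts (0.273, 0.245 and 0 CPM) in EV_vehicle. In P3_R1881 they had 15, 22 and 12 counts (0.725, 1.23 and 0.689 CPM), against 6, 8 and 2 counts (0.317, 0.464 and 0.131 CPM) in EV_R1881. Every P3 library was above every EV library, with and without hormone. The fitted log2 fold change of P3 over EV was 2.80 ± 0.57 (SE) in vehicle, or 6.95-fold, and 1.49 ± 0.57 in R1881, or 2.80-fold. The gene was chosen with its higher level in P3 cells known, so these are descriptions with no test.

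CXCL12 passed the filter in study 1 through the P3 libraries, and it was chosen for its level there, so its responses to hormone are given with no test. The fitted log2 change with R1881 was -0.53 ± 0.46 in P3 cells and 0.78 ± 0.71 in EV cells (± SE). The response in P3 minus that in EV was -1.31 ± 0.84. The ranges of R1881 and vehicle libraries overlapped in both arms.

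Since fibroblasts are a usual source of CXCL12, their markers are given beside it. The summed level of the 10 markers was 21.3 to 24.9 CPM in P3_vehicle libraries and 23.3 to 23.5 CPM in EV_vehicle libraries. Under R1881 it was 17.7 to 21.6 CPM in P3 and 13.6 to 16.3 CPM in EV libraries. COL1A1 and COL3A1 were the markers at 1 CPM or more in these groups, COL3A1 not in EV_R1881. COL1A2, FAP and POSTN had no count in any of the 4 groups.

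After siRNA, CXCL12 was lower still and did not pass the filter on low counts, so ratios of summed counts are given. The siWDR77_vehicle libraries had 9, 5 and 6 counts (0.337, 0.223 and 0.326 CPM), against 1, 3 and 2 counts (0.0497, 0.136 and 0.0806 CPM) in siCtrl_vehicle. The groups did not overlap, and the ratio of scaled sums was 3.31 (95% exact interval 1.28 to 10.1, counting error only). The siWDR77_R1881 libraries had 2, 1 and 2 counts and the siCtrl_R1881 libraries 4, 0 and 1, with a ratio of 0.887 (0.204 to 3.85). R1881 over vehicle was 0.284 (0.0833 to 0.78) in siWDR77 cells and 1.06 (0.256 to 4.17) in siCtrl cells. These ratios leave out the spread between cultures, and whether the siRNA or hormone changed CXCL12 was not tested.

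**Figure D1:**
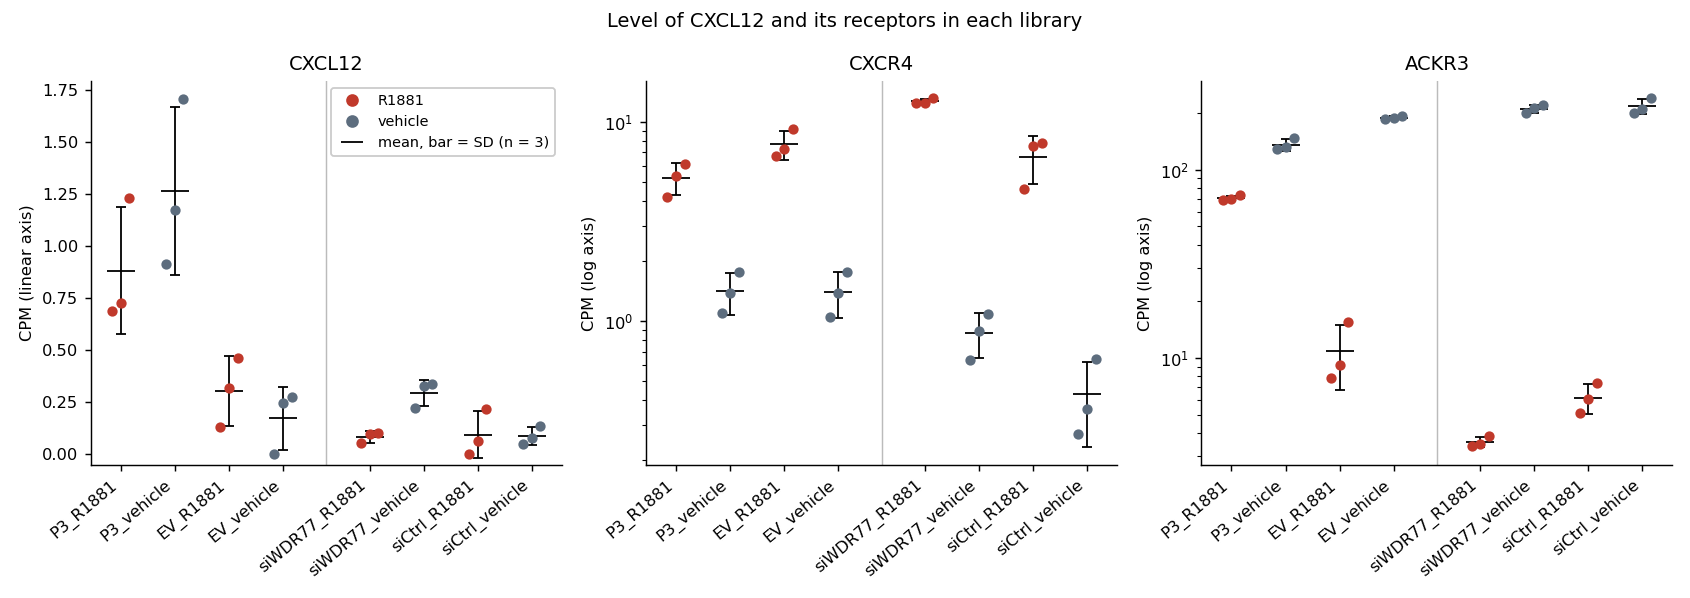
CPM of CXCL12 (linear axis), CXCR4 and ACKR3 (log axes) in each of the 24 libraries, in red with R1881 and grey with vehicle, with the mean and SD of 3 libraries in black; the vertical line parts study 1 from study 2. CXCL12 is highest in the P3 groups, and for both receptors every R1881 library lies apart from every vehicle library, with CXCR4 higher and ACKR3 lower.

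CXCR4, the signalling receptor, was scarce without hormone and rose with R1881 in all 4 arms. By level the groups ran siWDR77_R1881 (12.6 ± 0.391 CPM), EV_R1881 (7.72 ± 1.30), siCtrl_R1881 (6.65 ± 1.80), P3_R1881 (5.23 ± 0.98), P3_vehicle (1.41 ± 0.334), EV_vehicle (1.39 ± 0.358), siWDR77_vehicle (0.873 ± 0.225) and siCtrl_vehicle (0.427 ± 0.195). The siWDR77_R1881 libraries lay above all others. The ranges of neighbours in this order overlapped from EV_R1881 to P3_R1881 and from P3_vehicle to siCtrl_vehicle.

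In study 1, CXCR4 had 4.20, 6.16 and 5.34 CPM in P3_R1881, against 1.37, 1.09 and 1.76 CPM in P3_vehicle. It had 7.29, 9.17 and 6.68 CPM in EV_R1881, against 1.04, 1.75 and 1.38 CPM in EV_vehicle. The rise was 3.68-fold in P3 cells (log2 1.88 ± 0.23, adjusted p = 2.53e-08) and 5.44-fold in EV cells (log2 2.44 ± 0.23, adjusted p = 5.15e-12), by edgeR's quasi-likelihood test. Of the 17772 genes, R1881 called 21% in P3 cells, with 13% higher and 7.96% lower, and 51.4% in EV cells, with 24.9% higher and 26.4% lower, so a call alone is common, and 140 and 341 genes had a larger fitted rise than CXCR4. The difference between the arms' responses was -0.56 ± 0.34 (adjusted p = 0.254, 95% interval -1.24 to 0.12).

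Between arms, CXCR4 in P3_R1881 was 1.48-fold below EV_R1881, and the groups did not overlap. The log2 fold change was -0.57 ± 0.20 (edgeR adjusted p = 0.0234), in a comparison that called 18.9% of genes lower. This call was lost without EV_R1881 S2 (adjusted p = 0.131), without P3_R1881 S20 (0.128) and without P3_R1881 S6 (0.0503). Without hormone the fitted change of P3 over EV was -0.0039 ± 0.27 (adjusted p = 0.995), with a 95% interval of -0.55 to 0.54, where 15.8% of genes were called.

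In study 2, CXCR4 had 12.3, 13.1 and 12.4 CPM in siWDR77_R1881, against 0.637, 0.894 and 1.09 CPM in siWDR77_vehicle. It had 7.56, 7.81 and 4.58 CPM in siCtrl_R1881, against 0.646, 0.271 and 0.363 CPM in siCtrl_vehicle. The rise was 14.7-fold in siWDR77 cells (log2 3.88 ± 0.24, adjusted p = 9.98e-13) and 15.7-fold in siCtrl cells (log2 3.98 ± 0.28, adjusted p = 1.31e-11), by the same test over 17893 genes. R1881 called 53.2% of genes in siWDR77 cells, with 27.7% higher, and 51.1% in siCtrl cells, with 25.7% higher, and 137 and 133 genes rising more than CXCR4. The responses differed by -0.10 ± 0.38 (adjusted p = 0.97, 95% interval -0.89 to 0.69).

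WDR77 siRNA went with more CXCR4 under hormone. The level in siWDR77_R1881 was 1.89-fold that in siCtrl_R1881 (log2 0.91 ± 0.19, edgeR adjusted p = 0.00472), with no overlap, where 3.9% of genes were called higher. The alternatives kept this call, with adjusted p up to 0.0395. In vehicle the fitted change was similar in size, at 1.01 ± 0.37, but did not pass the threshold (adjusted p = 0.19, 95% interval 0.26 to 1.77), and the groups, at 6 to 20 counts a library, overlapped. There 0.682% of genes were called higher.

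ACKR3, the scavenging receptor, was abundant without hormone and low with it. By level the groups ran siCtrl_vehicle (217 ± 19.7 CPM), siWDR77_vehicle (211 ± 10.3), EV_vehicle (189 ± 3.63), P3_vehicle (136 ± 10.1), P3_R1881 (70.6 ± 2.16), EV_R1881 (10.8 ± 4.10), siCtrl_R1881 (6.14 ± 1.12) and siWDR77_R1881 (3.57 ± 0.225). Only the first pair of neighbours, siCtrl_vehicle and siWDR77_vehicle, overlapped. P3_R1881 stands out among the R1881 groups, with libraries at 68.9, 70.0 and 73.0 CPM where the other 9 R1881 libraries had 3.40 to 15.5 CPM.

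In study 1, ACKR3 in P3_R1881 was 1.93-fold below P3_vehicle, whose libraries had 148, 132 and 129 CPM (log2 -0.95 ± 0.13). In EV_R1881 the libraries had 9.19, 15.5 and 7.80 CPM, 17.4-fold below the 194, 187 and 187 CPM of EV_vehicle (log2 -4.12 ± 0.17). In study 2, siWDR77_R1881 had 3.49, 3.40 and 3.82 CPM, 59.1-fold below the 221, 212 and 200 CPM of siWDR77_vehicle (log2 -5.88 ± 0.10). siCtrl_R1881 had 6.03, 5.08 and 7.32 CPM, 35.6-fold below the 201, 239 and 212 CPM of siCtrl_vehicle (log2 -5.15 ± 0.098). R1881 and vehicle libraries did not overlap in any arm. The gene was chosen with its lower level under androgen known, so the hormone comparisons carry no test.

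The size of this response differed between P3 and EV cells. The response to R1881 in P3 minus that in EV was 3.17 ± 0.22 on the log2 scale, a 9.03-fold smaller reduction in P3 cells (edgeR adjusted p = 1.94e-06, 95% interval 2.69 to 3.66). In this test 11.5% of 17772 genes were called with a positive difference, and 52 genes had a larger one than ACKR3. Under R1881, ACKR3 rose 6.49-fold in P3 over EV cells (95% interval 2.31 to 3.08 on the log2 scale, adjusted p = 6.12e-07), where 18.1% of genes were called higher and 75 had a larger rise. Without hormone it fell, at 1.39-fold below EV (log2 -0.48 ± 0.13, adjusted p = 0.0344), where 7.88% of genes were called lower. That last call is near the threshold and was lost with DESeq2 (adjusted p = 0.0672) and without EV_vehicle S1, S15 or S29 (0.108, 0.0872 and 0.0893) or P3_vehicle S33 or S5 (0.105 and 0.137). These comparisons share libraries, so they are not separate evidence. ACKR3 was chosen with its lower level under androgen known. The R1881 libraries enter the response difference and the comparison under R1881, and their adjusted p do not allow for that choice.

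After WDR77 siRNA the ACKR3 level under hormone moved the other way. In siWDR77_R1881 it fell, at 1.71-fold below siCtrl_R1881 (log2 -0.77 ± 0.13, edgeR adjusted p = 0.000851), where 3.31% of genes were called lower. The alternatives kept the call, with adjusted p up to 0.0454. In vehicle the change was -0.041 ± 0.073 (adjusted p = 0.887, 95% interval -0.19 to 0.11). The responses to R1881 in siWDR77 and siCtrl cells differed by -0.73 ± 0.15, which did not pass the threshold (adjusted p = 0.09). In this fit edgeR called no gene for that difference, although 1484 of 17893 had an unadjusted p under 0.05. DESeq2 called 56 genes, and edgeR called 112 with no filter on low counts and 43 without siCtrl_vehicle S35. For ACKR3 it was called with DESeq2 (adjusted p = 0.0127), with no filter on low counts (0.00017) and without siCtrl_vehicle S35 (0.00724), the library with the highest ACKR3 level. Here too, the adjusted p that rest on R1881 libraries do not allow for the choice of ACKR3 as androgen-repressed.

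**Figure D2:**
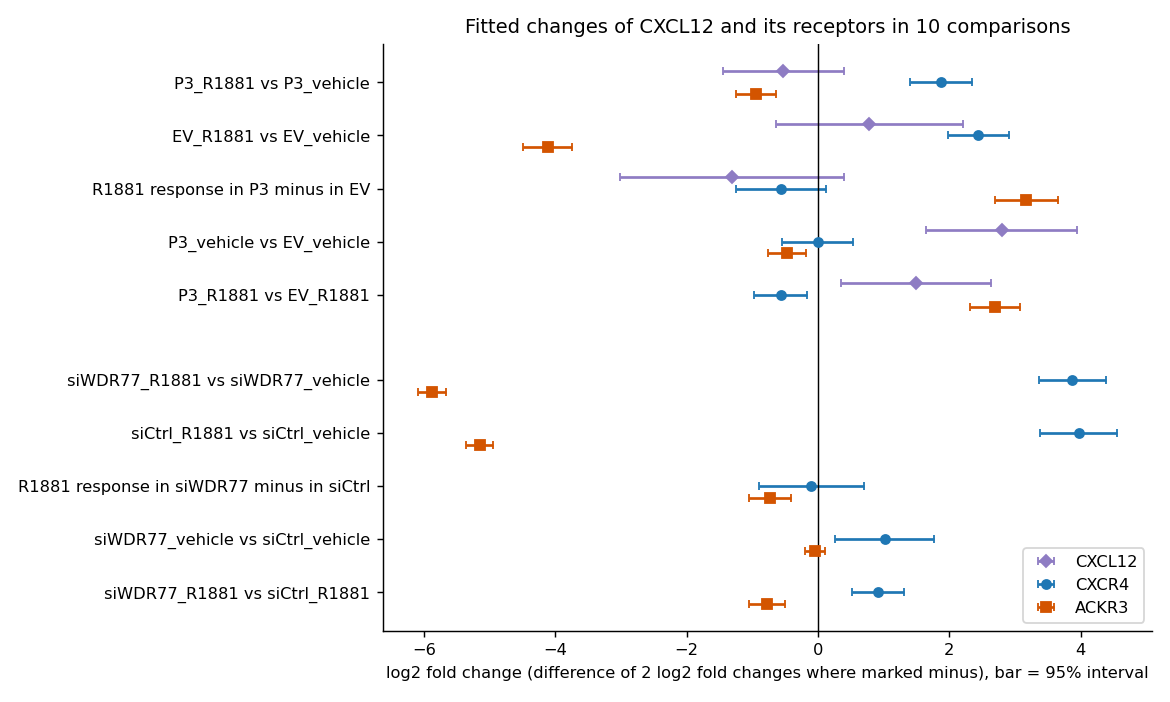
Fitted log2 fold changes with 95% intervals for CXCL12 (diamonds, study 1 only), CXCR4 (circles) and ACKR3 (squares) in 10 comparisons, study 1 above and study 2 below; rows marked minus are differences between 2 log2 fold changes. ACKR3 under R1881 is at -0.95 in P3 cells but between -4.12 and -5.88 in the other arms, and CXCR4 lies between 1.88 and 3.98.

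The 2 receptors were compared with each other on a scale of CPM per kilobase of exon, since they differ little in length. Without hormone ACKR3 made up nearly all of their summed level. CXCR4 was 1.05% ± 0.284 of the sum in P3_vehicle, 0.743% ± 0.201 in EV_vehicle, 0.422% ± 0.128 in siWDR77_vehicle and 0.204% ± 0.108 in siCtrl_vehicle (SD, n = 3). With R1881 the share was 6.98% ± 1.18 in P3, 42.9% ± 4.74 in EV, 78.2% ± 1.42 in siWDR77 and 51.9% ± 11.6 in siCtrl cells.

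The single R1881 libraries had CXCR4 shares of 5.84, 8.20 and 6.91% in P3 and 44.6, 37.5 and 46.5% in EV cells. They had 78.2, 79.6 and 76.8% in siWDR77 and 56.0, 60.9 and 38.9% in siCtrl cells. The P3 libraries lay below all EV libraries and the siWDR77 libraries above all siCtrl libraries. The summed level of both receptors was 33.6 ± 1.19 CPM per kilobase in P3_R1881 and 60.9 ± 4.41 in P3_vehicle, against 8.27 ± 2.40 in EV_R1881 and 84.5 ± 1.47 in EV_vehicle. In study 2 it was 7.25 ± 0.146 in siWDR77_R1881 and 93.9 ± 4.47 in siWDR77_vehicle, against 5.71 ± 0.387 in siCtrl_R1881 and 96.5 ± 8.66 in siCtrl_vehicle. The shares combine the fitted changes above and carry no test of their own.

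**Figure D3:**
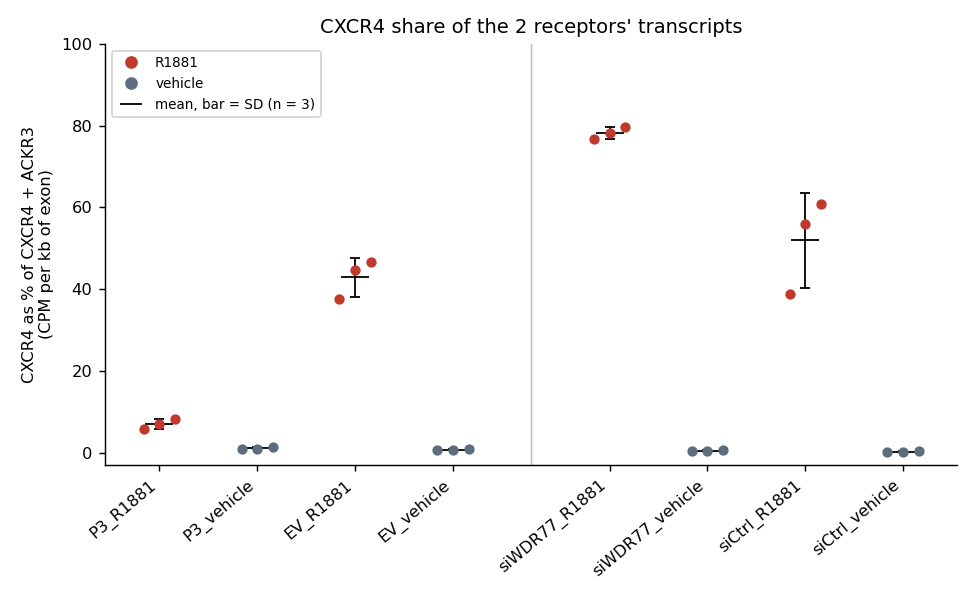
CXCR4 as a percentage of the summed CPM per kilobase of CXCR4 and ACKR3, per library, in red with R1881 and grey with vehicle, with the mean and SD of 3 libraries. Vehicle groups average 0.204% to 1.05%, P3_R1881 averages 6.98%, and the other R1881 groups average 42.9% to 78.2%.

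Other peptides that CXCR4 or ACKR3 bind, or bind beside CXCL12, were measured from a list of 6, of which 3 passed the filter. R1881 raised 0 and lowered 1 of them in P3 cells, against 1 and 2 in EV, siWDR77 and siCtrl cells each. Of all genes tested, R1881 raised 13% and lowered 7.96% in P3 cells, against 24.9% and 26.4% in EV cells. It raised 27.7% and lowered 25.5% in siWDR77 cells, and 25.7% and 25.4% in siCtrl cells. ADM, adrenomedullin, a peptide that ACKR3 scavenges, had 1.74 ± 0.55 CPM in P3_R1881 and 1.90 ± 0.26 CPM in P3_vehicle, against 0.116 ± 0.052 CPM in EV_R1881 and 0.971 ± 0.47 CPM in EV_vehicle. It fell with R1881 in EV cells (log2 -3.03 ± 0.57, edgeR adjusted p = 1.73e-05) and the change in P3 cells was -0.13 ± 0.34 (adjusted p = 0.856). The difference of 2.90 ± 0.68 passed the test (adjusted p = 0.00113). The single EV_R1881 libraries had 0.058 to 0.159 CPM of ADM, near the 0.124 to 0.18 CPM that a count of 0 allows. The sizes of the fall in EV cells and of the difference therefore rest on few reads. In study 2 ADM passed the filter through the vehicle libraries. Its log2 changes there, -1.77 ± 0.52 in siCtrl and -1.19 ± 0.49 in siWDR77 cells, are given with no test. CXCL11, an interferon-induced chemokine that also binds ACKR3, rose with R1881 in EV cells (log2 1.98 ± 0.42, adjusted p = 0.000106). It had 1.98 ± 0.34 CPM there against 0.493 ± 0.15 CPM in vehicle. In P3 cells its change was 1.21 ± 0.45 (adjusted p = 0.051). The response in P3 minus that in EV, -0.77 ± 0.63, was not called (adjusted p = 0.435). In study 2 CXCL11 passed the filter through the R1881 libraries. Its changes there, 2.69 ± 0.72 in siCtrl and 1.78 ± 0.62 in siWDR77 cells, are given with no test. The study 2 counts of this list include ADM and CXCL11. HMGB1, a nuclear protein that forms a complex with CXCL12 outside cells, fell in EV cells (log2 -0.99 ± 0.05, adjusted p = 2.78e-19). MIF had 24 counts over all libraries. No source used here says how reads with several alignments were handled, so its level was not read.

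Genes that cut CXCL12 or hold it at the cell surface numbered 11, of which 7 were tested. R1881 raised 1 and lowered 2 in P3 cells, against 3 and 3 in EV cells. It raised 2 and lowered 3 in siWDR77 cells, and 3 and 3 in siCtrl cells. The share raised in P3 cells was 14.3% of the list and 13% of all genes tested. In EV cells it was 42.9% of the list and 24.9% of all genes. In siWDR77 and siCtrl cells it was 28.6% and 42.9%, beside 27.7% and 25.7% of all genes. The share lowered was 28.6% in P3 cells and 42.9% in each other arm. Of all genes, 7.96% were lowered in P3, 26.4% in EV, 25.5% in siWDR77 and 25.4% in siCtrl cells. DPP4, the peptidase that removes the first residues of CXCL12, had 6.94 ± 0.74 CPM in P3_R1881 and 4.94 ± 0.84 CPM in P3_vehicle, against 6.15 ± 0.22 CPM in EV_R1881 and 1.96 ± 0.18 CPM in EV_vehicle. Without hormone it rose in P3 over EV cells (log2 1.33 ± 0.19, edgeR adjusted p = 5.16e-06, with 7.93% of all genes called higher) and in siWDR77 over siCtrl cells (log2 1.21 ± 0.26, adjusted p = 0.015), where 1.53% of all genes were called. The syndecans SDC4 and SDC1, whose heparan sulfate binds chemokines, fell with R1881 in all 4 arms. SDC4 changed by -0.49 ± 0.07 in P3 and -1.42 ± 0.08 in EV cells, and by -2.02 ± 0.09 in siWDR77 and -1.93 ± 0.09 in siCtrl cells.

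Of 20 genes for receptor desensitisation and trafficking, 18 were tested. R1881 raised 6 and lowered 1 in P3 cells, against 10 raised and 4 lowered in EV cells. In siWDR77 cells it raised 10 and lowered 3, and in siCtrl cells 10 and 2. The share raised was 33.3% of the list in P3 cells and 55.6% in each other arm. Of all genes tested, 13% were raised in P3, 24.9% in EV, 27.7% in siWDR77 and 25.7% in siCtrl cells. The share lowered was 5.56% of the list in P3, 22.2% in EV, 16.7% in siWDR77 and 11.1% in siCtrl cells. Of all genes, 7.96%, 26.4%, 25.5% and 25.4% were lowered, in the same order. Under R1881, 1 was higher in P3 than in EV cells (5.56% of the list) and 10 were lower (55.6%). Of all genes, 18.1% were called higher and 18.9% lower there. GRK2, a kinase that phosphorylates the CXCR4 tail, had 294 ± 9.9 CPM in P3_R1881 and 208 ± 6.6 CPM in P3_vehicle, against 372 ± 17 CPM in EV_R1881 and 194 ± 3.7 CPM in EV_vehicle. GRK3, a close relative, fell with R1881 in all 4 arms, with log2 changes of -0.40 in P3, -0.82 in EV, -1.07 in siWDR77 and -1.14 in siCtrl cells. RAB5A and RAB11A, GTPases of early and recycling endosomes, rose in all 4 arms.

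Of 41 signalling genes downstream of CXCR4, 36 were tested in study 1 and 37 in study 2. R1881 raised 13 and lowered 3 in P3 cells, against 21 raised and 6 lowered in EV cells. It raised 23 and lowered 8 in siWDR77 cells, and 20 and 8 in siCtrl cells. Under R1881, 4 were higher and 19 lower in P3 than in EV cells, and 5 were higher and 0 lower in siWDR77 than in siCtrl cells. The share raised was 36.1% of the list in P3 cells and 58.3% in EV cells, where 13% and 24.9% of all genes were raised. In siWDR77 and siCtrl cells it was 62.2% and 54.1%, beside 27.7% and 25.7% of all genes. The share lowered was 8.33% in P3, 16.7% in EV and 21.6% in each siRNA arm. Of all genes, 7.96% were lowered in P3, 26.4% in EV, 25.5% in siWDR77 and 25.4% in siCtrl cells. In P3_R1881 against EV_R1881, 11.1% of the list was higher and 52.8% lower, beside 18.1% and 18.9% of all genes. The share higher in siWDR77_R1881 than in siCtrl_R1881 was 13.5% of the list and 3.9% of all genes. The share lower was 0% of the list and 3.31% of all genes. The list's median log2 fold change in EV cells was 0.23, beside -0.04 for all genes tested. MTOR, a kinase downstream of AKT, rose in P3 (log2 0.87 ± 0.05) and EV cells (1.62 ± 0.05), and the responses differed by -0.75 ± 0.07 (edgeR adjusted p = 3.17e-11). PIK3R1, a regulatory subunit of PI3K, fell in all 4 arms, with log2 changes of -0.37 in P3 and -1.08 in EV cells. PAK1, a kinase driven by RAC and CDC42, had log2 changes of -0.52 in P3 and -1.84 in EV cells, both called. EGFR, a receptor that ACKR3 is reported to bind, rose in P3 over EV cells without hormone (log2 0.72 ± 0.06, adjusted p = 3.98e-11). Under R1881 that difference was -0.10 ± 0.06 (adjusted p = 0.213).

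Of 12 transcription factors known to act on the member genes, 11 were tested. R1881 raised 2 and lowered 2 in P3 cells, against 4 and 4 in EV cells. It raised 5 and lowered 2 in siWDR77 cells, and 4 and 3 in siCtrl cells. The share raised in P3 cells was 18.2% of the list and 13% of all genes tested. In EV cells it was 36.4% of the list and 24.9% of all genes. In siWDR77 and siCtrl cells it was 45.5% and 36.4%, beside 27.7% and 25.7% of all genes. The share lowered was 18.2% in P3, 36.4% in EV, 18.2% in siWDR77 and 27.3% in siCtrl cells. Of all genes, 7.96%, 26.4%, 25.5% and 25.4% were lowered, in the same order. KLF5, reported to act on CXCR4 in prostate cancer cells, rose with R1881 in all 4 arms, by 0.98 ± 0.15 in P3, 2.12 ± 0.16 in EV, 2.62 ± 0.13 in siWDR77 and 2.32 ± 0.13 in siCtrl cells on the log2 scale. Like CXCR4 it was higher in siWDR77_R1881 than in siCtrl_R1881 (log2 0.39 ± 0.11, edgeR adjusted p = 0.0371), where 7.22% of all genes were called. HIF1A, the hypoxia factor, rose with R1881 in all 4 arms, and NFKB1 fell in them.

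**Figure D4:**
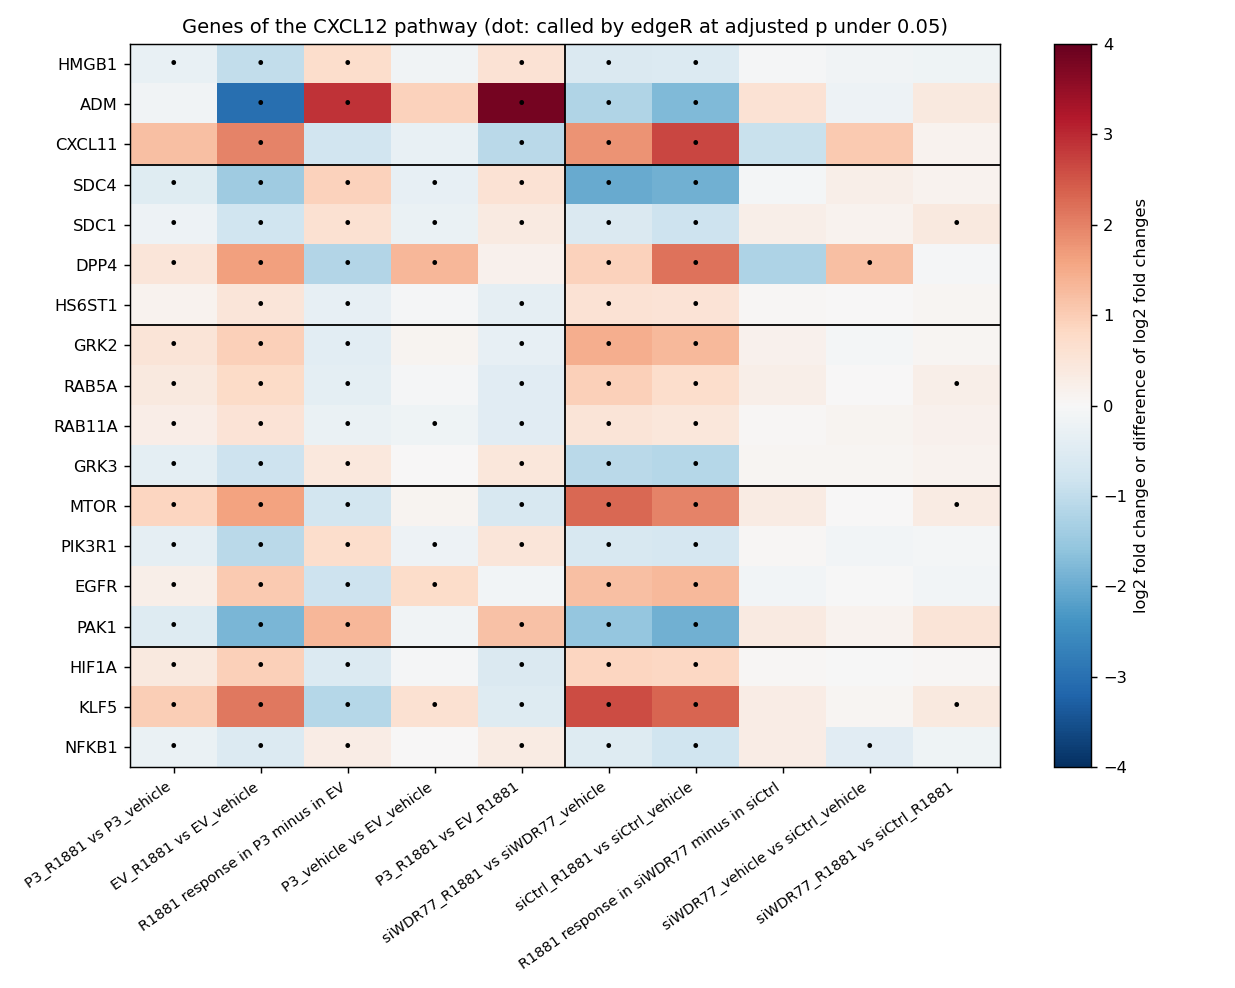
Log2 fold changes, or differences of 2 log2 fold changes, for genes of the CXCL12 pathway in 10 comparisons (red higher, blue lower), grouped by role with lines between lists; a dot marks an edgeR call at adjusted p under 0.05. The R1881 columns are paler in P3 than in EV cells, and dots are few in the columns of siWDR77 against siCtrl.

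The genes most like each receptor were found by Pearson r of log2 CPM over the 24 libraries among 14549 genes. For CXCR4 they were INPP4B, PEX10 (0.972), MPHOSPH9 (0.971), SLC39A10 (0.970) and PSLNR (0.970), with INPP4B the highest. For ACKR3 they were ADCY1, PRKD1 and SLITRK3 (0.992 each), RAI14 (0.991) and GASK1B (0.988). Vehicle and R1881 libraries form separate clusters for both receptors, so r was also taken within each cluster of 12. For the CXCR4 genes it was 0.802 to 0.889 in vehicle and 0.675 to 0.857 in R1881 libraries. For the ACKR3 genes it was 0.972 to 0.996 in R1881 libraries but ran between -0.338 (PRKD1) and 0.914 (GASK1B) in vehicle. These are descriptions over libraries that share depth, study and hormone. CXCL12 averaged too low for this measure.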

How the data were processed

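Poly(A) RNA of LNCaP cells was measured in 24 libraries. The authors deposited raw read counts per gene. Per the submitters' processing notes, the genome build was GRCh38.p7 and the tools were bcl2fastq 2.20, STAR 2.7.9a, and featureCounts (Subread 1.6.4). Whether counting used strand, the annotation release and how reads with several alignments were handled is not given in the sources used here. Columns were matched to samples by sample number. The P3_R1881 columns also carry the word siRNA, and their titles name P3 alone.

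Counts were tested with edgeR 4.0.16 in R 4.3.3 (TMM scaling, filterByExpr by group, robust quasi-likelihood F test) on the 12 libraries of each study. The threshold for a call was 0.05 after Benjamini-Hochberg adjustment over all genes tested. The fit was tested on simulated data. Gene lengths and positions came from GENCODE 29, which holds 58381 of the 60649 IDs. Pairs of libraries in a group differed by more than sampling noise (chi-square per degree of freedom 2.41 to 18.4). The highest values, 18.1 and 18.4, were those of siCtrl_vehicle S35 against S21 and S7, which gave 4.66 with each other.

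The members and gene lists were chosen with earlier results of these data known. Genes named are the members, WDR77 and KLK3 as checks, per list the 4 genes of smallest adjusted p in any comparison (mean of at least 1 CPM in the highest group), and the 5 genes most like each receptor (r of at least 0.8, prior count 2). A gene that this rule would name is not reported here. Alternatives were RLE size factors, no filter, DESeq2 1.42.0, a replicate block by run of sample numbers, a fit on the groups compared, a fit on all libraries, and each library left out.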

Additional observations from a re-analysis of the deposited data

Results flagged for a closer look

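The change of the ACKR3 response to R1881 by the P3 peptide stands out because the same contrast gave different effects in the 2 arms of study 1, by a test of the difference itself. The response in P3 minus that in EV was 3.17 ± 0.22 on the log2 scale (edgeR adjusted p = 1.94e-06). That p does not allow for the choice of ACKR3 with its lower level under androgen known. The responses behind it were -0.95 ± 0.13 in P3 cells and -4.12 ± 0.17 in EV cells. The ACKR3 level was 70.6 ± 2.16 CPM in P3_R1881 and 10.8 ± 4.10 CPM in EV_R1881 (SD, n = 3 each). All 3 P3_R1881 libraries lay above all 3 EV_R1881 libraries. Of all genes tested, 22.6% had a response called different between these arms.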

How the results depend on the processing

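Over 29 results for the 3 members, 332 alternative values were computed, 80 of them with no test. The other 252 include 11 values of the CXCL12 response to R1881 in EV cells, 12 in P3 cells and 17 of their difference. No test of these is read above, and all of them count as kept, with no call. Of the 252 with a test, 230 kept their sign and their side of the threshold, 10 lost a call, 3 gained one and 9 changed sign with no call before or after. Those 9 belong to CXCR4 in P3_vehicle against EV_vehicle (-0.21 to 0.21), ACKR3 in siWDR77_vehicle against siCtrl_vehicle (-0.094 to 0.038) and the CXCR4 response in siWDR77 minus siCtrl (-0.49 to 0.11), whose directions are not established. ACKR3 in P3_vehicle against EV_vehicle lost its call at -0.48 with DESeq2 and in 5 of 6 fits without single libraries, which ranged between -0.54 and -0.44. The fit at -0.54, without P3_vehicle S19, kept the call. CXCR4 in P3_R1881 against EV_R1881 ranged between -0.72 and -0.45 without single libraries, where 3 of 6 fits lost the call. The ACKR3 response in siWDR77 minus siCtrl gained a call with no filter (-0.73) and with DESeq2 (-0.75), and ranged between -0.85 and -0.60 without single libraries. With the replicate block for runs of sample numbers, ACKR3 in P3_vehicle against EV_vehicle was -0.48 (adjusted p = 0.0509), and no other member call changed. No label says that these numbers pair libraries. Correlations of same-run deviations were -0.026 to 0.118 in study 1 and -0.062 to 0.126 in study 2, and 8 and 7 of 12 libraries were closest to their own run, a hint from the data and not the design. The libraries were not treated as paired. With the block, P3_vehicle against EV_vehicle gave 3717 calls. The causes of these changes were not tested. Counts of called genes moved by over 1.5 times in 3 comparisons and in the siRNA difference. P3_vehicle against EV_vehicle gave 2809 calls, but 1709 when EV_vehicle S1 was left out, 1825 for EV_vehicle S15 and 1344 for P3_vehicle S5. siWDR77_vehicle against siCtrl_vehicle gave 273 calls, 422 with no filter, 436 with DESeq2, 127 on those 2 groups alone, 491 on all 24 libraries and 91 to 478 without single libraries. siWDR77_R1881 against siCtrl_R1881 gave 1291 calls and 587 to 752 without S22, S36, S8, S24 or S38. The response difference between siWDR77 and siCtrl gave 0 calls, 112 with no filter, 56 with DESeq2, 16 with the block, 40 on all 24 libraries and up to 43 without single libraries. Of the other named genes' values, 63 lost and 25 gained a call, and 61 changed sign with no call before or after. Of the counts called within the gene lists, 149 moved by over 1.5 times and 1671 did not, so small list counts depend on the settings. Of 24 member levels, 4 moved by over 1 SD in CPM over unscaled totals. Depth limits CXCL12, at 39 counts or fewer per library.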

Other observations

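Few other genes of the chemokine system were detected at 1 CPM or more. Of 21 other chemokine receptors, 3 averaged at least 1 CPM in any group (ACKR2, CCR10 and CXCR6), and 2 had no count in any library. Of 34 other chemokines, CXCL16 alone reached that level, and 13 had no count. CXCL16, a membrane-bound chemokine whose receptor is CXCR6, had 43.8 ± 2.1 CPM in P3_R1881 and 47.1 ± 3.8 CPM in P3_vehicle, against 36.5 ± 3.1 CPM in EV_R1881 and 46.4 ± 3.1 CPM in EV_vehicle. It fell with R1881 in EV cells (log2 -0.35 ± 0.08, edgeR adjusted p = 0.000206) and was higher in P3_R1881 than in EV_R1881 (log2 0.27 ± 0.08, adjusted p = 0.00587). The CXCL16 response in P3 minus that in EV, 0.24 ± 0.11, was not called (adjusted p = 0.107). CXCR6 rose with R1881 in EV cells (log2 0.97 ± 0.36, adjusted p = 0.0242), at 1.71 ± 0.21 CPM against 0.857 ± 0.18 CPM in vehicle. Its change was not called in P3 (-0.10 ± 0.34, adjusted p = 0.89), siWDR77 (0.10 ± 0.38, adjusted p = 0.841) or siCtrl cells (0.34 ± 0.38, adjusted p = 0.47). The CXCR6 response in P3 minus that in EV, -1.07 ± 0.50, was not called either (adjusted p = 0.124). CCR10, a receptor for skin and mucosal chemokines, passed the filter in study 1 through the vehicle libraries, so its changes there carry no test. It averaged 0.267 ± 0.15 CPM in EV_R1881 and 1.08 ± 0.48 CPM in EV_vehicle (log2 -1.94 ± 0.57). In P3 cells the log2 change was -1.34 ± 0.58. The CCR10 change was not called in siWDR77 (0.75 ± 0.43, adjusted p = 0.148) or siCtrl cells (-0.59 ± 0.44, adjusted p = 0.279). ACKR2, which scavenges inflammatory CC chemokines, fell with R1881 in siCtrl cells (log2 -1.10 ± 0.43, adjusted p = 0.0339), and was not called in P3 (0.26 ± 0.42, adjusted p = 0.743), EV (-0.33 ± 0.41, adjusted p = 0.539) or siWDR77 cells (-0.092 ± 0.41, adjusted p = 0.871). The ACKR2 response in siWDR77 minus that in siCtrl, 1.01 ± 0.60, was not called (adjusted p = 0.689), so no difference between these arms is shown.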
